A study of Homo sapiens with 8 samples.

Results

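The genes described here are 16 autosomal protein-coding genes whose RNA was lower in an indisulam-resistant derivative of Panc10.05 cells than in the parental cells. Panc10.05 is an established human pancreatic cancer cell line. Indisulam is a sulfonamide that brings the splicing factor RBM39 to a ubiquitin ligase containing DCAF15, which leads to degradation of RBM39. The 16 genes were selected on measured values: in CPM (the counts of a gene scaled to a common total of gene reads), the lowest of the 4 parental libraries had to be at least 1 CPM and at least 2.5 times the highest of the 4 resistant libraries. They came from 60675 genes listed, of which 10129 were autosomal, protein-coding and at 1 CPM or more in every parental library. The rule was met by 18 genes, and GDA and GALNT18 were left out of the group. The difference between the lines therefore chose these genes and is given as a description, with no test.

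RNA was sequenced from 8 libraries in 4 groups of 2. Parental cells were untreated or received 2 µM indisulam for 18 h. The resistant line had been grown in stepwise increasing drug, and both of its groups share that history. One was kept continuously on 2 µM indisulam, and the other, called untreated, had been off the drug for 1 week. The study's account of the selection names only doses below 2 µM. How long the line had been on 2 µM was not given in the sources used here. Whether the resistant line was a clone or a pool was not given in the sources used here. Panc10.05 is named by the sample titles, which were followed, although notes on culture and treatment in the same labels speak of A549. The study describes the libraries of a group as technical replicates, so the tests below measure the spread between these libraries.

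Between 65266253 and 108002436 reads were assigned to genes per library. Of 8 epithelial and ductal markers, 6 were at 10 CPM or more in every library, and S100P was under 1 CPM throughout. Their summed level was 6233 to 6541 CPM in parental and 10760 to 12550 CPM in resistant libraries. All 16 markers of leukocytes, fibroblasts, endothelium and lung epithelium were under 1 CPM in every library, with a summed level of 0.261 to 0.540 CPM in parental and 0.763 to 1.51 CPM in resistant libraries. Among them, PTPRC, CD3E, DCN, LUM, SFTPB and NKX2-1 had no read in any library. In bulk RNA, fewer cells expressing a gene and less RNA per cell cannot be told apart.

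The group has no single pathway in common, and its members fall into a few roles. Some act in signalling at the cell surface: DKK1 is a secreted inhibitor of Wnt signalling that binds the LRP5 and LRP6 co-receptors, BMPR1B is a type I receptor kinase for bone morphogenetic proteins (BMPs), and GPR35 is a G protein-coupled receptor of the gut. SYK is a non-receptor tyrosine kinase best known from immune receptors, PLCE1 is a phospholipase C regulated by Ras family GTPases, and PPP1R14C is an inhibitor of protein phosphatase 1. TBC1D2 is a GTPase-activating protein for Rab7, KANK1 and CRACD act on the actin cytoskeleton, and SYT14 is a synaptotagmin. FBP1 is the gluconeogenic fructose-1,6-bisphosphatase and SLC26A7 an anion transporter. ZNF626 and ZNF426 are zinc finger proteins. C10orf143 and TTC23, a tetratricopeptide repeat protein, are less well characterised.

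Promoter sequences are given for 6 members that stand for the different roles and promoter types of the group. They are the 100 bases before the transcription start of the RefSeq promoter table (GRCh38.p14), 5′ to 3′ on the strand of the gene. Capitals mark letters that match, on either strand, one of 12 short motifs, here TATAAA for the so-called TATA box, CCAAT for the box of that name, GGGCGG for the binding letters of Sp1-type factors, called the GC box here, GGAATG for those of TEAD factors, or AAAGTCC for the core of an HNF4 site. DKK1 lies at chr10:52314181-52314280 on the plus strand, BMPR1B at chr4:94757855-94757954 on the plus strand, GPR35 at chr2:240605330-240605429 on the plus strand, PPP1R14C at chr6:150142944-150143043 on the plus strand, TBC1D2 at chr9:98255650-98255749 on the minus strand and ZNF626 at chr19:20661572-20661671 on the minus strand.
DKK1: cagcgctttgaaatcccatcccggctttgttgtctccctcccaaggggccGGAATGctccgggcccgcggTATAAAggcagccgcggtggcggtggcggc
BMPR1B: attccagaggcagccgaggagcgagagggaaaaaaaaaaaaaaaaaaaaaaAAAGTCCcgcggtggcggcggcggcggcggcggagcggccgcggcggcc
GPR35: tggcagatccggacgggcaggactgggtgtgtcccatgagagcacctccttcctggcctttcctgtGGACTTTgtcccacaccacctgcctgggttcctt
PPP1R14C: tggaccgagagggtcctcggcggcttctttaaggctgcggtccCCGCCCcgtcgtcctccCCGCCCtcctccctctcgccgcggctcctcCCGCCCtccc
TBC1D2: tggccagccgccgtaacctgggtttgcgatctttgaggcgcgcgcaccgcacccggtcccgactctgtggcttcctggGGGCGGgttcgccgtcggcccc
ZNF626: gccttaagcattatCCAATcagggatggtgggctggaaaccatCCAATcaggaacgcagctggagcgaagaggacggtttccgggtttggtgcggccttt

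None of the 16 genes was lost outright. Every one had at least 7 reads in every resistant library, with a median of 92.5 reads against 491 in parental libraries. The resistant mean was 9.77% to 33.2% of the parental mean off the drug (median 22.8%) and 14.8% to 33.9% on it (median 22.6%). Among the 10129 genes at the minimum level, 2374 (23.4%) had every parental library above every resistant one, so non-overlap was common and the 2.5-fold ratio was the narrow step, passed by 0.178%. In the other direction, 2557 of 10399 genes (24.6%) had every resistant library above every parental one, and 299 (2.88%) reached a ratio of 2.5. A ratio of 5 was reached by 3 genes in the direction of loss and by 135 in the direction of gain, and a ratio of 10 by 0 and 66.

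**Figure D1:**
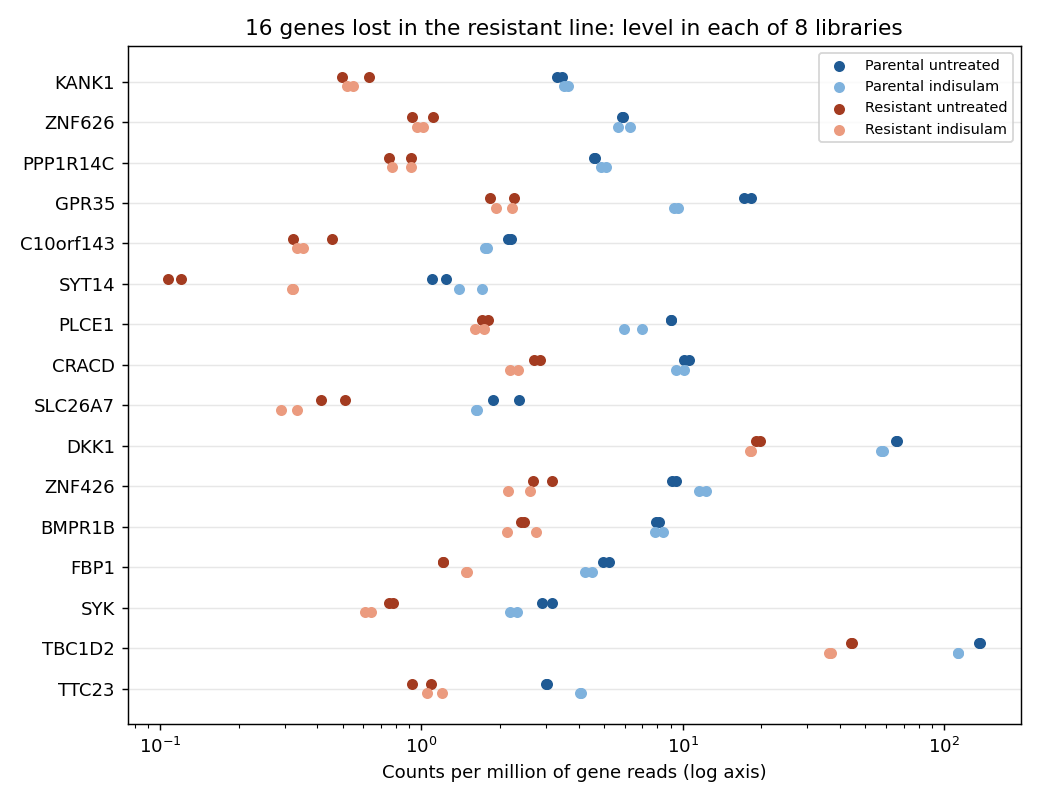
CPM of the 16 genes (rows, ordered by ratio) in each of the 8 libraries on a log axis, coloured by group, with untreated libraries drawn just above indisulam-treated ones. In every row the 4 parental points lie to the right of the 4 resistant points, as the rule requires, with TBC1D2 at the highest levels and SYT14 at the lowest.

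The surface signalling members differed in level and in how steady they were. DKK1 was at 65.8 and 65.7 CPM in untreated and 58.3 and 57.3 CPM in treated parental libraries, and at 19.7 and 19.1 CPM in untreated and 18.1 and 18.3 CPM in treated resistant libraries. BMPR1B was at 7.90 and 8.14 CPM in untreated and 7.85 and 8.39 CPM in treated parental libraries, against 2.46 and 2.41 CPM in untreated and 2.13 and 2.75 CPM in treated resistant ones. For both genes the drug groups of a line lay close together and the lines far apart. GPR35 was at 18.2 and 17.2 CPM in untreated parental libraries, at 9.59 and 9.27 CPM after indisulam, and between 1.83 and 2.25 CPM in the 4 resistant libraries. Its treated parental libraries thus lay between the other groups. GPR35 overlaps CAPN10 on the same strand, a gene that took 76.8% of their summed reads and averaged 29.2 CPM in parental and 28.6 CPM in resistant libraries. How reads in the shared part were assigned was not given in the sources used here, so the levels of GPR35 are uncertain to that extent.

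Among the intracellular signalling members, SYK was at 3.16 and 2.89 CPM in untreated and 2.18 and 2.31 CPM in treated parental libraries. In resistant libraries SYK was at 0.750 and 0.781 CPM untreated and 0.608 and 0.642 CPM on the drug. PLCE1 was at 9.06 and 9.02 CPM in untreated parental libraries, 6.96 and 5.96 CPM after treatment, and 1.60 to 1.79 CPM in the resistant ones. For SYK and PLCE1, both treated parental libraries were below both untreated ones. PPP1R14C stayed at 4.56 to 5.09 CPM in parental and 0.751 to 0.912 CPM in resistant libraries. TBC1D2 was the most abundant member, at 137 and 136 CPM in untreated and 113 and 113 CPM in treated parental libraries. It was at 44.2 and 44.4 CPM in untreated and 37.1 and 36.3 CPM in treated resistant libraries. Both lines thus had their lower TBC1D2 values on the drug. Per kilobase of exon, TBC1D2 (34.7 CPM per kb) and DKK1 (27.8 CPM per kb) had the highest mean parental levels.

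KANK1, CRACD and SYT14, of the cytoskeleton and of membrane traffic, were at 10.53 CPM or less in every library. KANK1 had the largest ratio, 5.24, with 3.29 to 3.65 CPM in parental and 0.495 to 0.628 CPM in resistant libraries. CRACD was at 10.07 and 10.53 CPM in untreated and 10.10 and 9.41 CPM in treated parental libraries, and at 2.84 and 2.70 CPM in untreated and 2.34 and 2.18 CPM in treated resistant ones. CRACD values on and off the drug were apart in the resistant line and overlapped in the parental line. SYT14 was at 1.09 and 1.24 CPM in untreated and 1.70 and 1.39 CPM in treated parental libraries. In resistant libraries it was at 0.120 and 0.107 CPM untreated, which is 9 and 7 reads, and at 0.319 and 0.321 CPM on the drug, which is 21 and 30 reads. Its untreated resistant level, 9.77% of parental, was the smallest remainder in the group and rests on these few reads.

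FBP1, of gluconeogenesis, was at 5.22 and 4.96 CPM in untreated and 4.24 and 4.50 CPM in treated parental libraries. In the resistant line FBP1 was at 1.21 CPM in both untreated libraries and at 1.47 and 1.49 CPM on the drug, so the remainder was 23.7% off and 33.9% on the drug. PCAT7, a long non-coding gene on the opposite strand of FBP1, averaged 0.819 CPM in parental and 0.220 CPM in resistant libraries and took 14.7% of their summed reads. The strand setting of the counting was not given in the sources used here, so reads of this pair may not be fully separated. SLC26A7 was at 1.88 and 2.36 CPM in untreated and 1.63 and 1.62 CPM in treated parental libraries, and at 0.509 and 0.414 CPM in untreated and 0.334 and 0.289 CPM in treated resistant ones. LRRC69, which overlaps it on the same strand, took 36.1% of their summed reads and averaged 0.718 CPM in the parental line and 0.622 CPM in the resistant line, and the same uncertainty applies.

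ZNF626 was at 5.63 to 6.26 CPM in parental and 0.924 to 1.10 CPM in resistant libraries, with overlapping values on and off the drug. ZNF426 was at 9.09 and 9.43 CPM in untreated and 12.3 and 11.5 CPM in treated parental libraries. In resistant libraries ZNF426 was at 3.17 and 2.67 CPM untreated and 2.14 and 2.61 CPM on the drug, so its order by drug was turned round. C10orf143 was at 2.204 and 2.15 CPM in untreated and 1.79 and 1.75 CPM in treated parental libraries, and at 0.322 to 0.455 CPM in resistant ones. TTC23 was at 3.03 and 3.01 CPM in untreated and 4.10 and 4.04 CPM in treated parental libraries, and at 0.919 to 1.20 CPM in resistant ones. SYK, with a ratio of 2.79, TBC1D2, with 2.55, and TTC23, with 2.51, were just inside the threshold, and C1orf226 (2.31), GUCY1A1 (2.28) and TTLL11 (2.28) just outside it. TNFSF18 had a ratio of 7.78 but missed the minimum level, with 0.473 CPM in its lowest parental library.

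Treated libraries were among those the rule compared, so the rule bounds the response to indisulam and is not independent of it. For GPR35, the lowest parental library, at 9.27 CPM, was a treated one. The response was tested with edgeR's quasi-likelihood test, with Benjamini-Hochberg adjustment over 16661 genes. In parental cells, 9 of the 16 genes were called at an adjusted p under 0.05, 3 higher and 6 lower, where 58.2% of all genes tested were called, 31.6% higher and 26.6% lower. The share among the members was near that of all genes. The median log2 change of the members was -0.07 and that of all genes 0.01. GPR35 fell the most, with a log2 change of -0.84 (SE 0.06, edgeR adjusted p = 5.5e-11). PLCE1 fell by 0.42 (SE 0.07, edgeR adjusted p = 3.1e-05) and TBC1D2 by 0.20 on the log2 scale (SE 0.03, edgeR adjusted p = 1.7e-06). DKK1 fell by 0.12 on the log2 scale (edgeR adjusted p = 0.0026), a small change in a gene with at least 4501 reads per parental library. TTC23 rose by 0.50 (SE 0.10, edgeR adjusted p = 0.00012) and ZNF426 by 0.43 (SE 0.07, edgeR adjusted p = 8.3e-06).

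A further 3 parental calls, each in a gene under 4 CPM, depended on single libraries and on the method. The DESeq2 Wald test on all libraries did not call them. Its adjusted p values were 0.1 for SYK, 0.13 for SYT14 and 0.28 for SLC26A7. SYK fell by 0.36 on the log2 scale (edgeR adjusted p = 0.0057, and 0.076 without parental untreated replicate 1). SYT14 rose by 0.47 (edgeR adjusted p = 0.007). Its adjusted p was 0.084 without parental untreated replicate 1 and 0.16 without parental indisulam replicate 1. SLC26A7 fell by 0.32 on the log2 scale (edgeR adjusted p = 0.048). Its adjusted p was 0.48 without parental untreated replicate 2, and 0.087 and 0.094 without parental indisulam replicate 1 and 2. KANK1, ZNF626, PPP1R14C, C10orf143, CRACD, BMPR1B and FBP1 did not pass, with log2 changes from -0.23 for C10orf143 to 0.18 for PPP1R14C.

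In resistant cells, on the drug against the week off it, 5 of the 16 genes were called, 1 higher and 4 lower, where 50.7% of all genes were called, 24.9% higher and 25.8% lower. The median log2 change was -0.11 for the members and 0.01 for all genes. SYT14 rose by 1.43 (SE 0.36, edgeR adjusted p = 0.0019), the largest drug response of any member in either line, though from 9 and 7 reads. TBC1D2 fell by 0.32 on the log2 scale (SE 0.03, edgeR adjusted p = 2.7e-08). CRACD fell by 0.35 on the log2 scale (SE 0.10, edgeR adjusted p = 0.0062). Its adjusted p was 0.058 without resistant untreated replicate 1 and 0.081 without resistant indisulam replicate 2. ZNF426 fell by 0.33 on the log2 scale (SE 0.11, edgeR adjusted p = 0.016). Its adjusted p was 0.28 without resistant untreated replicate 1 and 0.16 without resistant indisulam replicate 1. DKK1 fell by 0.14 on the log2 scale (edgeR adjusted p = 0.0072, and 0.097 without resistant untreated replicate 1). Without resistant untreated replicate 1, fewer of the 16 genes were called, and fewer of all genes as well. The largest change among genes that missed the threshold was that of SLC26A7, -0.64 (SE 0.27, edgeR adjusted p = 0.052), which passed in some alternative fits, with an adjusted p of 0.042 at the lowest. GPR35, which fell the most in parental cells, had a log2 change of -0.03 (SE 0.12) in resistant cells.

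**Figure D2:**
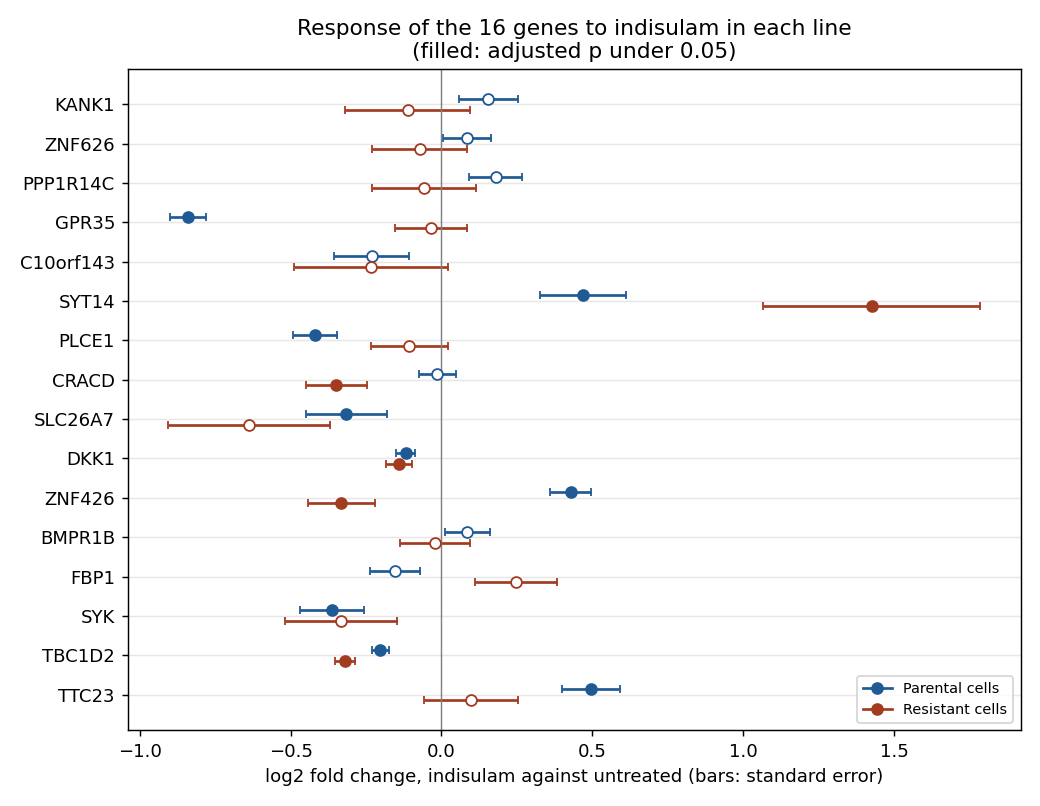
Log2 fold change with indisulam against untreated for each of the 16 genes (rows), in parental (blue) and resistant (red) cells. Bars are standard errors and filled points have an adjusted p under 0.05, with GPR35 at -0.84 in parental and -0.03 in resistant cells, ZNF426 on opposite sides of 0, and SYT14 at 0.47 and 1.43 with a wide bar in resistant cells.

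The difference between the responses of the lines was tested as an interaction, as the resistant minus the parental log2 response. It was called for 6 of the 16 genes, 3 higher and 3 lower, where 50.1% of all genes were called, 22.7% higher and 27.5% lower. GPR35 differed by 0.81 (SE 0.13, edgeR adjusted p = 2.5e-05). ZNF426, which rose in parental cells and had a less steady fall in resistant cells, differed by -0.76 (SE 0.13, edgeR adjusted p = 3.9e-05). Both kept their call without any single library, with adjusted p values of at most 0.00075 for GPR35 and 0.002 for ZNF426 over the alternatives other than a test against a minimum effect. Under that test, against 0.5 log2 units, neither passed, with adjusted p values of 0.063 and 0.1.

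The other 4 interaction calls were less steady. SYT14 differed by 0.96 (SE 0.39, edgeR adjusted p = 0.047) and FBP1 by 0.40 (SE 0.16, edgeR adjusted p = 0.04). CRACD differed by -0.33 (SE 0.12, edgeR adjusted p = 0.022) and TBC1D2 by -0.12 (SE 0.04, edgeR adjusted p = 0.028). The TBC1D2 difference depended on scaling: with library totals alone its log2 responses were -0.269 in parental and -0.272 in resistant cells. Over the alternatives other than a test against a minimum effect, its adjusted p reached 0.96. TBC1D2 lost its call when any 1 of the 8 libraries was left out, with adjusted p values from 0.055 without resistant indisulam replicate 1 to 0.21 without resistant indisulam replicate 2. FBP1 kept it only without parental indisulam replicate 2, and otherwise had values from 0.053 without parental untreated replicate 2 to 0.11 without parental untreated replicate 1. SYT14 kept it only without parental untreated replicate 1 or parental indisulam replicate 1, with 0.13 at the highest without resistant untreated replicate 2. CRACD lost it without parental untreated replicate 1 (0.069), parental indisulam replicate 1 (0.084), resistant untreated replicate 1 (0.12) or resistant indisulam replicate 2 (0.16). The number called fell with any 1 library left out, most without resistant untreated replicate 1 or resistant indisulam replicate 2. The share of all genes called also fell in each of these fits.

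**Figure D3:**
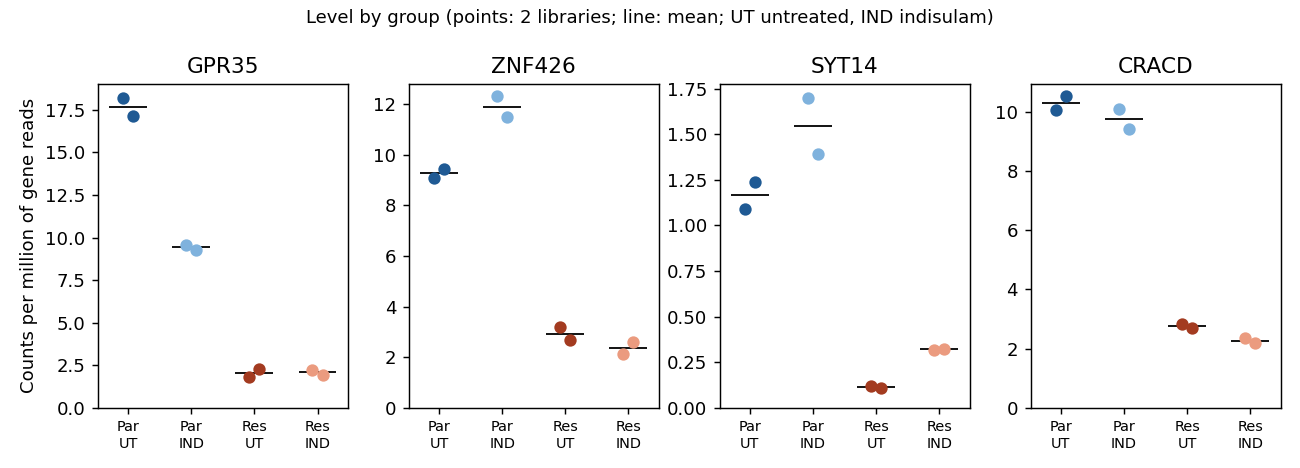
CPM of GPR35, ZNF426, SYT14 and CRACD in the 4 groups, with 1 point per library, the mean as a line and each axis starting at 0 (Par parental, Res resistant, UT untreated, IND indisulam). GPR35 drops from 18.2 and 17.2 to 9.59 and 9.27 CPM in parental cells and lies between 1.83 and 2.25 CPM in resistant cells. ZNF426 goes up with the drug in parental cells. In resistant cells its mean is lower on the drug, with the nearest libraries at 2.67 and 2.61 CPM.

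The members were unevenly spread over the genome. Chromosome 9 held 4 of the 16 genes (KANK1, SYK, FBP1 and TBC1D2), although 4.37% of the 10129 genes at the minimum level lie there. Chromosome 10 held 3 (DKK1, PLCE1 and C10orf143), against 4.01% of the genes at the minimum level. Chromosomes 4 and 19 held 2 each, against 3.74% and 7.48% of those genes. SYK, FBP1 and TBC1D2 followed each other on chromosome 9, 3.84 and 3.62 Mb apart, and no pair of members lay within 1 Mb. Genes of chromosomes 9 and 10 that are not members were also lower in resistant cells. Off the drug, the median log2 difference of tested non-member protein-coding genes was -0.39 on chromosome 9, the lowest of the 22 autosomes, and -0.22 on chromosome 10, the next lowest. By library, the chromosome 9 median relative to parental cells was -0.35 to -0.40 in the 4 resistant libraries. The 5 autosomes with a median below 0 (4, 7, 9, 10 and 19) held 11 of the 16 members (68.8%) and 24.4% of the 10129 genes. These chromosomes were grouped after their values were seen.

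**Figure D4:**
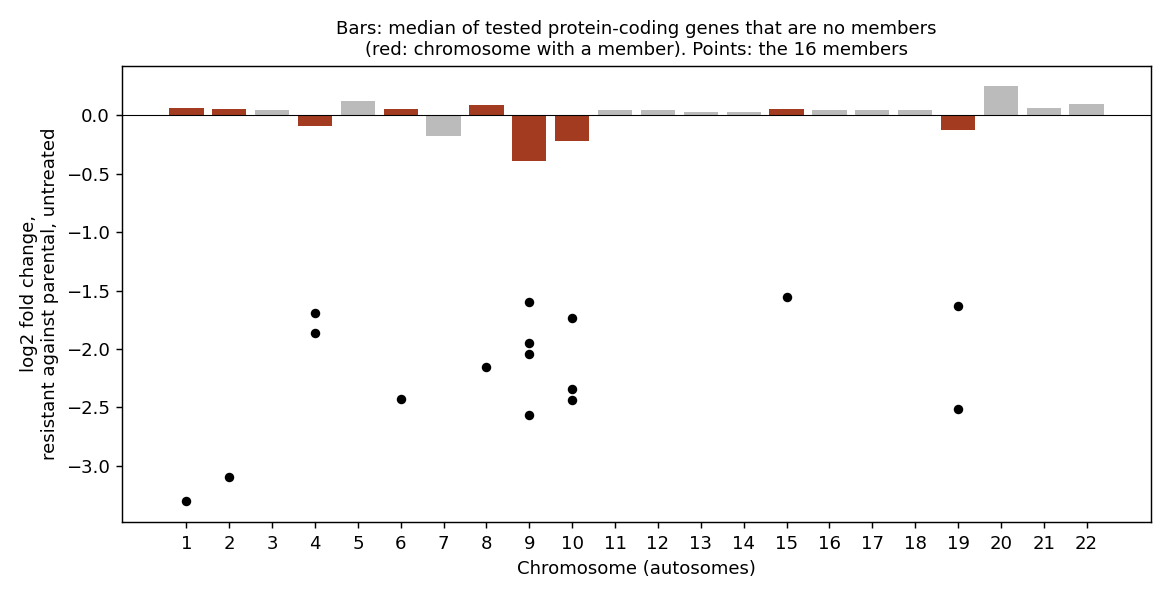
Median log2 difference between untreated resistant and parental cells of the tested protein-coding genes that are not members, for each autosome (bars, red where a member lies), and the same difference for the 16 members (points). The bar for chromosome 9 is the lowest, at -0.39, and all 16 points lie below the bar of their chromosome.

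Within chromosomes, the neighbourhood of the members differed from gene to gene. Of 145 tested non-member genes with a start within 1 Mb of a member, 102 (70.3%) were lower in untreated resistant cells, with a median log2 difference of -0.29, where 47.2% of the 12083 tested autosomal genes that are not members were lower, with a median of 0.02. All 6 neighbours of FBP1 were lower (median -0.70), as were all 7 of PLCE1 (-0.46), 12 of 15 of TBC1D2 (-0.63), 24 of 31 of ZNF426 (-0.52), 12 of 13 of CRACD (-0.36) and 12 of 14 of ZNF626. In contrast, 3 of 15 neighbours of PPP1R14C were lower (median 0.19), as were 1 of 5 of TTC23 and 0 of 1 of DKK1. On the drug, 7 of 15 neighbours of PPP1R14C (median 0.06), 4 of 5 of TTC23 (median -0.31) and 1 of 1 of DKK1 were lower. Medians in windows of 20 Mb compared mean CPM over all 4 libraries of each line, on and off the drug. On chromosome 10 they were near 0 from 0 to 60 Mb, where DKK1 lies. From 60 Mb onwards, where PLCE1 and C10orf143 lie, they were -0.27 to -0.35. Chromosome 19 was at -0.39 from 0 to 20 Mb, where ZNF426 lies, and at -0.04 from 20 to 40 Mb, where ZNF626 lies. The median in the window of SYK, FBP1 and TBC1D2 was -0.58. Their own log2 differences, from edgeR and off the drug only, were -1.95, -2.05 and -1.60. On the means over all libraries, their parental levels were 3.786, 3.517 and 3.085 times the resistant ones. In an alternative chosen after seeing the data, each resistant level was divided by the median ratio of its chromosome, from the same means. Of the 16 genes, 13 still met the rule, and FBP1, SYK and TBC1D2 no longer did. DNA was not measured here, and the part of chromosomal position in these differences was not tested.

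The members were mostly genes of low expression. The median of their mean parental levels was 5.34 CPM against 39.3 CPM for the 10129 genes, and 11 of 16 (68.8%) were under 10 CPM against 18.9%. The other 5 were TBC1D2, DKK1, GPR35, ZNF426 and CRACD. The median exon length was 6658 bp against 5625 bp.

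Promoters were found in the RefSeq table for 15 of the 16 members and 8524 of the 10129 genes, as windows from 250 bases before to 50 bases after the start. The members' windows had fewer CpG dinucleotides, with a median of 19 against 27, and a median ratio of observed to expected CpG of 0.66 against 0.86. A ratio of 0.6 or more was present in 10 of 15 (66.7%) against 87% of all genes. GPR35 was the poorest in CpG at 0.17, followed by ZNF626 at 0.33, while BMPR1B was at 1.15 and PPP1R14C at 0.88. For KANK1, SYT14 and PLCE1 the RefSeq start was far from the outermost GENCODE start, so their windows may not be the promoters used in these cells. The starts of FBP1 and TTC23 were 731 and 1642 bases apart, also more than the reach of a window. KANK1 and PLCE1, at 0.467 and 0.397, were among the members under 0.6. The motif matches of these genes carry the same doubt.

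Motif matches in these windows are descriptions of letters only. The TATA box letters occurred in 1 member, DKK1, and in 4.92% of all windows. The CCAAT letters occurred in 5 members, among them ZNF626 with 2 copies, and in 37.4% of all windows. The GC box letters occurred in 9 of 15 members, 6 times in PPP1R14C, and in 72.4% of all windows. The TEAD letters occurred in KANK1, GPR35, DKK1 and ZNF426, 4 of 15, and in 10.5% of all windows, and the HNF4 core letters in GPR35 and BMPR1B and in 2.7% of all windows. The letters CCGGAAG, which ETS factors bind, occurred in 2 members and in 21.9% of all windows. TGTTTAC, known from FOXA sites, occurred in 1 member (PLCE1) and in 2.21% of all windows. The E-box letters CACGTG occurred in 1 member (SYT14) and in 10.6% of all windows, and the letters TGACGT of CREB-type sites in 1 member (ZNF426) and in 12.4%. No member held AGATAA, known from GATA factor sites and present in 4.39% of all windows. The same was true of TGANTCA, bound by AP-1 and present in 4.31%, and of GTTAAT, which is part of HNF1 sites and present in 3.12%.

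The pathways around DKK1 and BMPR1B were read from gene lists, with the line contrasts tested by edgeR for genes that are not members. Across all 16661 genes, 30.3% were higher and 29.9% lower in resistant cells off the drug, and 34.6% were higher and 34.9% lower on it. Of 22 other Wnt pathway genes tested, 9 were higher and 6 lower off the drug, and 9 were higher and 7 lower on it. RNF43, a ubiquitin ligase that removes Wnt receptors, averaged 0.126 CPM in untreated parental and 2.44 CPM in untreated resistant cells (log2 difference 4.28, SE 0.20, edgeR adjusted p = 3.2e-15). The Wnt ligand WNT10A was also higher (log2 difference 2.75), at only 0.042 CPM in untreated parental and 0.289 CPM in untreated resistant cells. The receptor FZD1 (-0.39) and the ligand WNT7B (-0.35) were lower, from 13.5 and 40.7 CPM in untreated parental cells. WNT10A, FZD1 and WNT7B each had an edgeR adjusted p under 0.05. With RNF43, they are the 2 largest changes in each direction. Outside that rule, the ligand WNT4 (2.12), the transcription factors TCF7 (1.10) and SP5 (1.01) and the receptors FZD2 (0.59) and FZD4 (0.57) were higher. Each of these rises was larger than any fall in the list other than that of DKK1. WNT4 and SP5 were also low, at 0.15 and 0.239 CPM in untreated parental and 0.638 and 0.478 CPM in untreated resistant cells. LRP6, named outside the rule as a co-receptor bound by DKK1, averaged 31.7 ± 1.88 CPM in the parental line and 30.5 ± 1.12 CPM in the resistant line (SD, n = 2, untreated), a log2 difference of -0.03 (SE 0.04, adjusted p = 0.57 in edgeR).

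Of 22 other genes of the Notch, hedgehog and BMP list, 12 were higher and 7 lower off the drug, and 11 were higher and 6 lower on it. The ligands BMP4 and BMP2 were higher where BMPR1B was lower. BMP4 averaged 0.024 CPM in untreated parental and 1.62 CPM in untreated resistant cells, and BMP2 0.0047 and 0.389 CPM. Both were called higher, with adjusted p values of 1.2e-05 and 7.6e-09 in edgeR. ID2 and ID3, which encode inhibitory helix-loop-helix proteins and are known BMP target genes, were lower, by log2 differences of -1.42 (SE 0.10, edgeR adjusted p = 4.9e-12) and -0.88 (SE 0.04, edgeR adjusted p = 7e-14). Further genes of the pathway are named outside the rule for list genes. The receptors BMPR1A and BMPR2 differed by -0.26 and 0.35, and the target gene ID1 by -0.53, each at an adjusted p under 0.05. The targets did not move one way: SMAD7, a feedback inhibitor induced by the pathway, was higher by 0.90 (SE 0.06, edgeR adjusted p = 1.3e-11). SMAD6, another such inhibitor, was higher by 0.36 and only just passed (SE 0.15, edgeR adjusted p = 0.05 after rounding). NOG, a secreted BMP antagonist, averaged 8.54 ± 0.43 CPM in untreated resistant and 0.482 ± 0.041 CPM in untreated parental cells (SD, n = 2), a log2 difference of 4.17 (SE 0.11, adjusted p = 4.4e-20 in edgeR).

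Of 9 gene lists, 2 held a member, and of 12 gene families, 4 did. The list of the indisulam target and its degradation complex held none. Of its 8 genes, 2 were higher and 3 lower off the drug, and all 8 were lower on it, where 34.9% of all genes were lower. Their log2 differences on the drug ran from -0.60 for DCAF15 to -0.11 for RBX1, with a median of -0.19. With indisulam, 6 of the 8 were called higher and 0 lower in parental cells, where 31.6% and 26.6% of all genes were. In resistant cells 3 were higher and 2 lower on the drug, where 24.9% and 25.8% of all genes were. The interaction was called higher for 1 and lower for 6, against 22.7% and 27.5% of all genes. Among 421 other ZNF genes, 101 were higher and 153 lower off the drug, and 114 were higher and 175 lower on it. Among 222 other solute carriers, 96 were higher and 61 lower off the drug. Among 40 other G protein-coupled receptors named GPR or ADGR, 18 were higher and 11 lower, and among 116 other regulators of small GTPases, 51 were higher and 44 lower. The family of ZNF626 and ZNF426 was the one among these 4 with more lower than higher genes off the drug. The median log2 difference of its other genes was small, at -0.05 off the drug, and the part of chromosomal position in it was not tested.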

How the data were processed

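RNA sequencing libraries of parental and resistant Panc10.05 cells, untreated or on indisulam, were analysed from the raw read counts per gene that the authors deposited, 1 table per library. The authors prepared stranded libraries from polyadenylated RNA, trimmed reads with SeqPurge and aligned them to GRCh38 with HISAT2 2.2.1. HTSeq and Picard are named in the submitters' processing notes. The annotation release used for counting was not given in the sources used here. Reads marked as duplicates were listed apart from the gene counts.

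GENCODE release 44 (GRCh38) gave symbols and positions for 60419 of the 60675 identifiers, and RefSeq gave promoter sequences. CPM is the count divided by the sum of the counts of all listed genes and multiplied by 1e+06. The members and gene lists were chosen with earlier results of these data known. The named genes were the members, the genes beside the thresholds, and up to 4 genes of a list, here the 2 largest log2 changes in each direction between the untreated lines. Some further list genes were added after their values were seen, and the text says so there.

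Drug responses and their difference between the lines were tested on the counts in R 4.3.3 by edgeR 4.0.16. After filterByExpr, 16661 genes remained, which were scaled with TMM (trimmed mean of M values) and fitted with a robust quasi-likelihood model of 4 group means over all 8 libraries. An adjusted p under 0.05 (Benjamini-Hochberg, over all genes tested) was called. The fit was tested on simulated data. Alternatives were DESeq2 1.42.0, other scalings, no filter, a replicate block, a stricter threshold, a minimum effect, other limits of the member rule, and each library left out in turn. Replicate numbers did not pair the libraries. The libraries of each group differed by more than counting noise (chi-square 2.04 to 5.87 as the mean over genes, where noise alone gives about 1), so none was a repeat deposit. Molecular identifiers are not mentioned in the sources used here, so depth bounds counting error only, and precision was set by 2 libraries per group.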

Additional observations from a re-analysis of the deposited data

Results flagged for a closer look

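For 6 of the 16 genes, the test of the difference itself (edgeR interaction, adjusted p under 0.05) set the indisulam responses of parental and resistant cells apart, where 50.1% of all 16661 genes were called. As the resistant minus the parental log2 response, the difference was 0.81 for GPR35, 0.96 for SYT14, 0.40 for FBP1, -0.33 for CRACD, -0.76 for ZNF426 and -0.12 for TBC1D2. GPR35 fell in parental cells. ZNF426 rose in parental cells, and the call of its fall in resistant cells depended on single libraries. TBC1D2 fell in both lines, by nearly the same amount with library totals alone (-0.269 in parental and -0.272 in resistant cells). SYT14 rose in both lines and rests on 7 to 30 reads per library in resistant cells. For FBP1 neither response passed on its own, and for CRACD the resistant one did.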

How the results depend on the processing

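The number of members depended on the limits of the rule. It was 29 at 2-fold, 9 at 3-fold, 50 from untreated libraries alone and 25 from indisulam libraries alone, and 16 to 18 with 1 library left out. Tested against 0.5 log2 units, 1 gene was called in parental cells (GPR35), 1 in resistant cells (SYT14) and 0 for the interaction, against 6.25%, 5.28% and 5.45% of all genes. For the interaction, DESeq2 called 3 (40.2% of all genes) and a threshold of 0.01 left 2 (38.8%). Without a filter, 2 of the 16 genes were called. Among all genes then tested, a wider set than after filtering, 8066 were called. That was a smaller share than the 50.1% called with the filter. With 1 library left out, 7 to 9, 2 to 6 and 2 to 4 genes were called, against 47.6% to 57.4%, 40.7% to 50.6% and 42.2% to 48.4% of all genes. Over the groups, same-numbered libraries correlated in their deviations at -0.19 to 0.14, so the numbers give no pairing. With a replicate block, 8, 5 and 5 genes were called, against 57.2%, 49.9% and 49.3% of all genes.

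The log2 values that changed sign were all from comparisons in which that gene was not called. With library totals alone they were 0.015 for GPR35 and 0.027 for BMPR1B in resistant cells, and 0.114 for C10orf143, 0.093 for DKK1 and 0.0078 for BMPR1B in the interaction. Without a filter the interaction was 0.023 for C10orf143 and 0.0017 for DKK1, and with the block 0.0054 for C10orf143. With 1 library left out, parental values ran from -0.0057 to 0.132 for ZNF626 and from -0.077 to 0.021 for CRACD. Resistant values ran from -0.28 to 0.049 for KANK1, -0.20 to 0.044 for ZNF626, -0.19 to 0.10 for PPP1R14C, -0.18 to 0.10 for GPR35, -0.46 to 0.059 for C10orf143, -0.24 to 0.12 for BMPR1B and -0.020 to 0.23 for TTC23. Interaction values ran from -0.20 to 0.31 for C10orf143, -0.035 to 0.030 for DKK1, -0.31 to 0.056 for BMPR1B and -0.038 to 0.10 for SYK. The cause was not tested. The lowest read counts of a member in resistant libraries were 7 to 30 for SYT14, 21 to 34 for C10orf143, 22 to 38 for SLC26A7 and 34 to 51 for KANK1.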
